A study of Mus musculus with 11 samples.

Results

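Granulosa cells of unstimulated mice (0 h) were examined by setting the RNA level of each gene beside its level of H3K4me3, trimethylation of lysine 4 of histone H3. The members were chosen by label alone, as the libraries of untreated mice, and made up 5 of the 11 samples of the series: 3 RNA sequencing libraries and 2 libraries of chromatin immunoprecipitation (ChIP-seq). All came from ovarian granulosa cells of C57BL/6 mice. Collection by follicular puncture and an age of postnatal day 21 are labelled for the RNA libraries only. No allele, transgene or agent is labelled for either set. The series calls the libraries of an assay biological replicates, and nothing in the labels ties an RNA library to an H3K4me3 library.

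Granulosa cells surround the oocyte in the follicle, answer follicle-stimulating hormone, make oestradiol from androgens of the neighbouring theca cells, and secrete inhibins and activins. H3K4me3 is laid down around transcription start sites by methyltransferases of the SET1 and MLL families. It is found at active promoters and also at many CpG-rich promoters whose genes make little RNA. In some CpG-rich developmental genes it is found together with repressive marks, which were not measured here.

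The RNA libraries held 15050013, 18511429 and 17984380 counts and the H3K4me3 libraries 15124233 and 11989769. Of 24825 gene IDs in either table, 24525 were in both and were joined by Entrez ID, and 5665 of these had no RNA count. Levels are CPM, read counts scaled to library size with TMM factors within the assay, and an RNA CPM is not divided by transcript length, so that at equal copy number a longer transcript has the higher CPM. Among expressed genes the rank correlation of RNA CPM with gene span was 0.107 (13202 genes). RNA was called expressed at 1 CPM or more in each of the 3 libraries and silent at 0.1 CPM or less in each. H3K4me3 was called marked when both libraries lay above 5.19 CPM and unmarked when both lay at or below it. This limit is the 99th percentile of 1473 olfactory and vomeronasal receptor genes, a family chosen by symbol, whose median was 1.74 CPM (29 and 19 counts per library). Such low values are called background here, and the median marked gene stood at 36.4 times the receptor median.

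Promoter sequences show the contrast in CpG content that runs through the results. Each of the following is the 250 bases before an annotated start, taken from RefSeq on GRCm38.p6 and written 5′ to 3′ on the strand of the gene, with CpG pairs in capitals. Foxl2 and Inha stood at the top of the H3K4me3 levels, and Hoxd13 and Alb had no or almost no RNA and H3K4me3 below the limit. Foxl2 (chr9:98955357-98955606, plus strand) has 22 CpG pairs and Inha (chr1:75507359-75507608, plus strand) has 4. Hoxd13 (chr2:74667975-74668224, plus strand) has 31 and Alb (chr5:90460620-90460869, plus strand) has 2.
Foxl2: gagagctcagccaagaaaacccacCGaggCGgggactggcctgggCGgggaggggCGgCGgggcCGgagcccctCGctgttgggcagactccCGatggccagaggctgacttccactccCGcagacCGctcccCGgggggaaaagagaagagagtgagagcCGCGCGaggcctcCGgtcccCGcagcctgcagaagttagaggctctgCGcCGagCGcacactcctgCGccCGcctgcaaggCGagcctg
Inha: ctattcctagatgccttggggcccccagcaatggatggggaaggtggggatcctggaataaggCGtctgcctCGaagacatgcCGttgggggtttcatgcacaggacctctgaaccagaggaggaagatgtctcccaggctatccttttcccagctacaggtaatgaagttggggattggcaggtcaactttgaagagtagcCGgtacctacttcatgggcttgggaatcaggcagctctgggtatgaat
Hoxd13: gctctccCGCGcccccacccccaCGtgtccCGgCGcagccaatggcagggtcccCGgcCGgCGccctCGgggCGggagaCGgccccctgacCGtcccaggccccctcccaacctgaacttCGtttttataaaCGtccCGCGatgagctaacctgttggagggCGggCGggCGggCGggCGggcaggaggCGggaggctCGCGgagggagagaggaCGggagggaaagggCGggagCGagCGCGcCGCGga
Alb: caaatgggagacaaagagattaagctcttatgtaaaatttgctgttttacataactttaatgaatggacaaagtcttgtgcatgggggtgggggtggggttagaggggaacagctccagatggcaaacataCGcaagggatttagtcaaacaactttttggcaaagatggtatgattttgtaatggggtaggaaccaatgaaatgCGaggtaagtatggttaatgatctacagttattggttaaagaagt

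Foxl2 is thus CpG-rich with a high mark, which its close neighbour Foxl2os shares, and Alb is CpG-poor with none above background. Inha and Hoxd13 show that the CpG content of an annotated start and the mark did not go together in every gene. Inha, CpG-poor in its window, had 341 and 347 CPM of H3K4me3. That window lies inside the gene, which begins at 75507077, and its counts cannot be told apart from those of its neighbour Obsl1. The CpG-rich Hoxd13 had 4.36 and 3.47 CPM, below the limit of 5.19 CPM and above the receptor median of 1.74 CPM.

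Across all 24525 IDs, genes with more RNA had more H3K4me3. The Spearman correlation of the mean levels was 0.774, and it was 0.769 to 0.778 over the 6 pairs of 1 RNA and 1 H3K4me3 library. Genes are not independent replicates, and these correlations carry no test. Much of the relation lay between expressed and silent genes: within the 13213 expressed genes (53.9% of IDs) the correlation was 0.547, and within the 12045 that were also marked (49.1% of IDs) it was 0.503. RNA libraries correlated with one another at 0.983 to 0.987 and the H3K4me3 libraries at 0.979, so the spread between libraries was far smaller than the spread of genes around the relation.

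The mark differed steeply between low RNA levels and little between high ones. Genes with no RNA count had a median H3K4me3 of 1.74 CPM, the same as the receptor genes. These groups share members, since the receptor genes had a median RNA of 0 CPM and 1449 of 1473 were silent. Their equal medians are therefore not an independent comparison. The genes with RNA counts were put in 10 equal bins by RNA level. In the bin with a median RNA of 0.755 CPM the median H3K4me3 was 5.61 CPM, and at a median RNA of 8.94 CPM it was 36.5 CPM. It reached 57.5 CPM at a median RNA of 20 CPM and 98.9 CPM at 199 CPM. Above about 20 CPM of RNA, a large further gain of RNA went with a modest gain of the mark. The share of marked genes was 9.57% with no RNA count, 49.7% at 0.755 CPM, 85.5% at 8.94 CPM and 95% to 97.8% in the 5 highest bins.

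**Figure D1:**
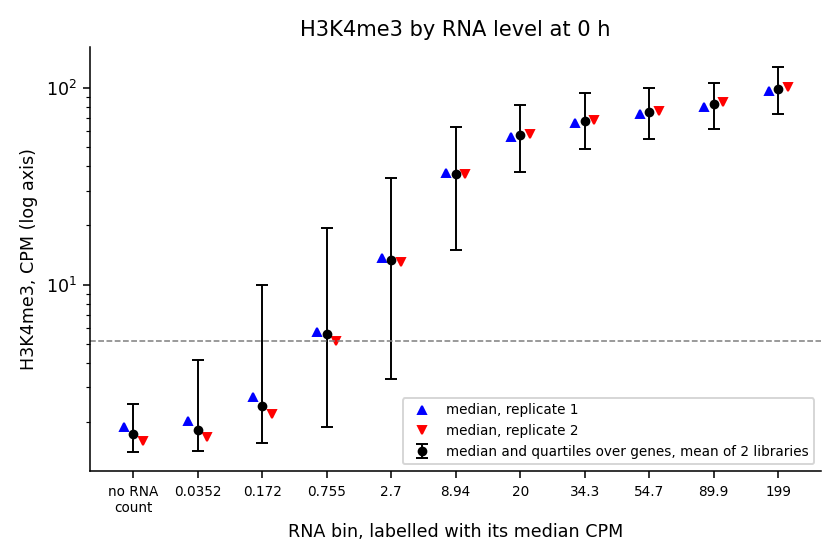
H3K4me3 CPM (log axis) by RNA level at 0 h, for genes with no RNA count and 10 equal bins labelled with their median RNA CPM. Black points and bars are the median and quartiles over genes, triangles are the medians of the single libraries, and the dashed line is the limit of 5.19 CPM. Medians run from 1.74 to 98.9 CPM, and those of the libraries lie close together in every bin.

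Read from the side of the mark, the share of expressed genes climbed and then levelled off. In the lowest decile of genes by H3K4me3, 6.64% were expressed. The share was 43.3% in the fifth decile, around a median of 10 CPM, and 78.4% in the sixth. From the seventh decile upward, at medians of 53.2 to 130 CPM, 92.7% to 93.8% were expressed and the share no longer climbed. The median RNA still did, from 30.5 CPM in the seventh decile to 71.2 CPM in the highest.

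Of all IDs, 53.9% were expressed, 28.1% were silent, 59.2% were marked and 39.5% were unmarked. Most genes fell into the 2 classes in which both assays point the same way: 12045 (49.1%) were expressed and marked, and 6011 (24.5%) were silent and unmarked. Of the expressed genes 91.2% were marked, and of the silent genes 87.2% were unmarked. The silent and unmarked class holds 1427 of the receptor genes from which the limit was set. The median H3K4me3 was 69.1 CPM in expressed and marked genes and 1.65 CPM in silent and unmarked genes. The other 2 corners were small. Expressed and unmarked genes numbered 1063 (4.33%), with medians of 4.81 CPM of RNA and 2.07 CPM of H3K4me3, and silent and marked genes numbered 785 (3.2%), with a median H3K4me3 of 16.9 CPM.

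**Figure D2:**
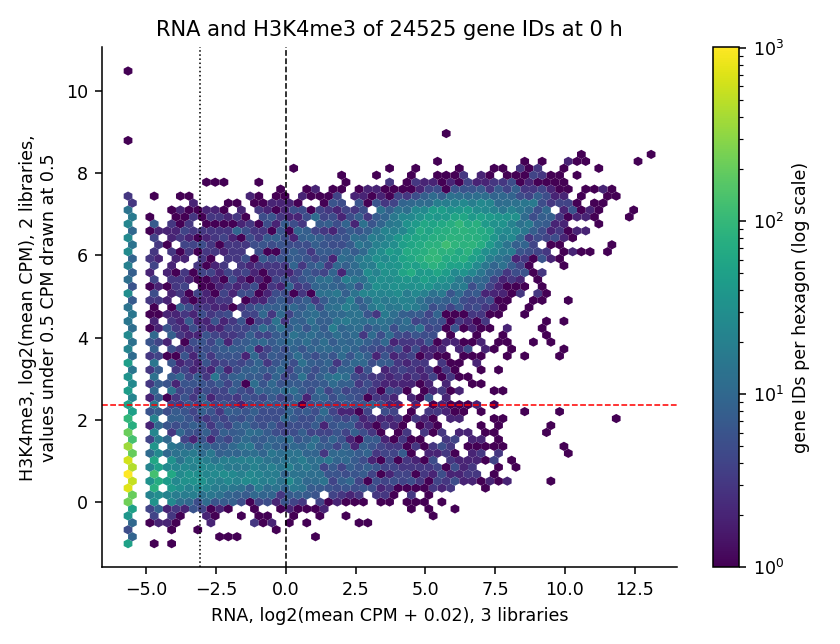
Mean RNA, as log2(CPM + 0.02) over 3 libraries, against mean H3K4me3, as log2 CPM over 2 libraries, for 24525 gene IDs at 0 h. Colour is the number of IDs per hexagon on a log scale; the red dashed line is the H3K4me3 limit, and the black dashed and dotted lines mark 1 and 0.1 CPM of RNA. A dense cloud of expressed genes lies high above the limit, and a second one with little or no RNA lies at background.

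The libraries held the markers of the labelled cell type. All 21 granulosa markers were expressed and 19 were marked, beside 53.9% and 59.2% of all IDs, with medians of 355 CPM of RNA and 122 CPM of H3K4me3. Inha (gene ID 16322; chromosome 1, 75507077 to 75510366), the inhibin alpha subunit, had 9545.7, 7701.4 and 8753.6 CPM of RNA, the highest of all genes, and 341 and 347 CPM of H3K4me3. Its neighbour Obsl1, whose annotated start lies 1157 bp away, had 339 and 344 CPM of H3K4me3 and 1624.5 to 1740.7 CPM of RNA, and the counts of the pair cannot be told apart. Foxl2 (gene ID 26927; chromosome 9, 98955607 to 98958126), the transcription factor that keeps ovarian cells from a testis fate, had 391, 298 and 377 CPM of RNA and 279 and 310 CPM of H3K4me3.

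The 245 IDs with the highest H3K4me3 (0.999% of IDs) included 7 of the 21 granulosa markers. Beside Inha and Foxl2 these were Gata6 (257 and 267 CPM) and Gata4 (190 and 198 CPM), a pair of GATA transcription factors, and Esr2 (241 and 247 CPM), oestrogen receptor beta. The other two were Fst (238 and 236 CPM), the activin antagonist follistatin, and Serpine2 (200 and 201 CPM), a protease inhibitor. The mark was thus extreme at regulators and at secreted products alike. RNA of these genes was spread widely, from 155 ± 12.7 CPM for Gata6 to 2862.7 ± 323 CPM for Serpine2 and far more for Inha (mean ± SD, n = 3).

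The genes of highest RNA and of highest H3K4me3 overlapped in part, and some of them belong to the marker list. Of the 10 named for each among 9215 IDs, Inha and Gja1 were in both. The others of highest H3K4me3 ranked from 27 (Obsl1) to 393 (Foxl2) in RNA over all 24525 IDs. Gja1, the connexin 43 of the gap junctions between granulosa cells, had 6735.0, 5844.8 and 6306.6 CPM of RNA and 284 and 295 CPM of H3K4me3. The others of highest RNA by the naming rule were Eef1a1, Inhba, Thbs1, Ctsl, Hsd3b1, Hsp90b1, Serpine2 and Ivns1abp, with 2320.7 to 5173.9 CPM of RNA and 63.6 to 259 CPM of H3K4me3. Their marks thus spread from below the median of expressed and marked genes (69.1 CPM) to near the top. The others of highest H3K4me3 were Obsl1, Bmpr2, Sema5a, Foxo1, Foxl2, Tshz1, Ext1 and Hnrnpa2b1, at 284 to 341 CPM. Besides Obsl1, Sema5a, Foxl2, Tshz1 and Hnrnpa2b1 each had a neighbour within 5000 bp whose H3K4me3 was within 20%. These neighbours were Snhg18, Foxl2os, Zadh2 and Cbx3, so the marks of such pairs cannot be told apart. Bmpr2, a receptor for bone morphogenetic proteins and growth factors of the oocyte, had 1083.5 ± 120 CPM of RNA and 332 and 327 CPM of H3K4me3. Foxo1, a transcription factor of growing follicles that is restrained by insulin and gonadotropin signalling, had 1628.4, 1678.9 and 1611.6 CPM of RNA and 290 and 302 CPM of the mark. All 8 were well expressed, from 355 CPM of RNA in Foxl2 to 1693.6 CPM in Obsl1.

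Inhibin and activin subunits did not share their level of the mark. Inhbb, the beta B subunit, had 4952.9 ± 334 CPM of RNA and 118 and 120 CPM of H3K4me3. Inhba, the beta A subunit, had 3518.5 ± 693 CPM of RNA and 76.4 and 73.4 CPM. Fshr, the receptor for follicle-stimulating hormone, had 98.7, 100 and 137 CPM of RNA and 77.7 and 73.1 CPM of H3K4me3. Inhba therefore had far more RNA than Fshr, while the H3K4me3 libraries of the 2 genes overlapped. Against other genes of the highest RNA bin, Inhba stood at the 26.2 percentile of H3K4me3 and Inhbb at the 67.6 percentile.

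Some granulosa genes with abundant RNA had little of the mark. Amh (gene ID 11705), anti-Müllerian hormone of small growing follicles, had 1177.4, 767 and 918 CPM of RNA but 21.2 and 23.0 CPM of H3K4me3, the 3.82 percentile of its RNA bin. Amhr2, its receptor, had 274 ± 32.5 CPM of RNA and 43.2 and 46.1 CPM of H3K4me3. Nr5a2 (gene ID 26424; chromosome 1, 136842562 to 136960448), a nuclear receptor needed for ovulation, had 1179.9, 1020 and 1019.8 CPM of RNA and only 3.13 and 1.44 CPM of H3K4me3. Its relative Nr5a1, steroidogenic factor 1, had less RNA (303, 269 and 264 CPM) and far more of the mark (120 and 122 CPM). No library of one gene overlapped those of the other in either assay.

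Cyp19a1 encodes aromatase, the enzyme of oestradiol synthesis (gene ID 13075, at 54165937 to 54268164 of chromosome 9). It had 276, 147 and 244 CPM of RNA and 1.5 and 1.44 CPM of H3K4me3. The latter rest on 23 and 17 counts and lie below the receptor median. RefSeq gives the gene 3 starts spread over 74421 bp. Their sequences are shown because all 3 are poor in CpG, with 6, 3 and 2 pairs. In order from upstream they lie at chr9:54268165-54268414, chr9:54228915-54229164 and chr9:54193744-54193993, all on the minus strand.
Cyp19a1 start 1: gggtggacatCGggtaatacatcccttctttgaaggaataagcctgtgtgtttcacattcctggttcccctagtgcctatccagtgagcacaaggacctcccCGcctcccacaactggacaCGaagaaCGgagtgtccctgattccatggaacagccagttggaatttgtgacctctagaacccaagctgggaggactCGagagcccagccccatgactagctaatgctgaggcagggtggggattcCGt
Cyp19a1 start 2: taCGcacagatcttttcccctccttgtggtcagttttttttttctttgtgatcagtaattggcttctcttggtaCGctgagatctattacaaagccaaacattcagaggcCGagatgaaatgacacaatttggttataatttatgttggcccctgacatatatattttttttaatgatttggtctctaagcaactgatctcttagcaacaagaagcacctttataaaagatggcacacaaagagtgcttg
Cyp19a1 start 3: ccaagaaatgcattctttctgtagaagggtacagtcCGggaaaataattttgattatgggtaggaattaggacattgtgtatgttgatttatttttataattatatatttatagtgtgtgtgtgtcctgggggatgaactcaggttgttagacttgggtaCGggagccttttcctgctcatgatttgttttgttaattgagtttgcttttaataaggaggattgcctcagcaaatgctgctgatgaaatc

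The deposited values give 1 H3K4me3 level per gene ID, and the stretch of DNA counted for a gene is not given in the sources used here. In genes with no RNA count the H3K4me3 level had a rank correlation of 0.009 with gene span (5618 genes), so the background did not scale with the length of the gene. An unmarked gene is therefore one with few counts in the stretch counted, and its other starts were not measured separately.

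Other enzymes of steroid synthesis also combined much RNA with little of the mark. Of 16 genes of steroid synthesis and cholesterol supply, 14 were expressed and 12 marked, with a median H3K4me3 of 63.2 CPM and a median percentile of 20.6 among genes of the same RNA bin. Cyp11a1, the side-chain cleavage enzyme that makes pregnenolone, had 1123.3, 665 and 884 CPM of RNA and 5.21 and 4.15 CPM of H3K4me3, on either side of the limit. Star, which brings cholesterol into mitochondria, had 66.1, 30.4 and 24.9 CPM of RNA and 7.49 and 8.55 CPM of H3K4me3. Hsd3b1, which makes progesterone from pregnenolone, was among the 10 genes of highest RNA by the naming rule at 2974.0 ± 577 CPM, with 66.1 and 61.2 CPM of the mark.

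Some supporting members of the pathway stood closer to the middle of all genes at their RNA level. Fdx1, ferredoxin, had 108 CPM of H3K4me3 (107 and 110) at 232 ± 53.7 CPM of RNA, the 58.6 percentile of its bin. Scarb1, which takes up cholesterol from high-density lipoprotein, had 97.2 and 93.5 CPM at 614 ± 45.3 CPM of RNA. Hsd17b1, which converts oestrone to oestradiol, had 154 and 148 CPM of H3K4me3, but its counts lie close to those of its neighbour Coasy. Por, which passes electrons to cytochromes P450, was lower, at the 17.1 percentile. The 4 lowest marks among the expressed genes of the list were those of Cyp19a1, Cyp11a1, Star and Cyp17a1, which act mainly in steroid-making cells.

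Several genes of the ovulatory response had the reverse arrangement, with little RNA and a clear mark. Many genes of this list are switched on in granulosa cells by the later surge of luteinizing hormone, but the list also holds the receptor for that hormone, Lhcgr. Of 21, 12 were expressed at 0 h (57.1%, beside 53.9% of all IDs) and 17 were marked (81.0%, beside 59.2%). The median RNA was 1.78 CPM and the median H3K4me3 26.9 CPM, beside 2.69 and 18.6 CPM over all IDs. Has2 (gene ID 15117), which makes the hyaluronan of the cumulus matrix, had 1.02, 1.27 and 1.34 CPM of RNA and 63.4 and 54.8 CPM of H3K4me3, the 89.3 percentile of its RNA bin. Ptgs2, the inducible prostaglandin synthase, had 0.543, 0.845 and 1.06 CPM of RNA and 16.3 and 13.0 CPM of the mark. Pgr, the progesterone receptor, had 2.11 ± 0.738 CPM of RNA and 38.8 and 35.0 CPM of the mark.

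Areg and Ereg, growth factors of the epidermal growth factor family, had 0.455 ± 0.315 and 0.223 ± 0.117 CPM of RNA with 12 and 13.1 CPM of H3K4me3. Tnfaip6, a matrix protein, had 0.809 ± 0.291 CPM of RNA and 20.7 and 22.2 CPM of the mark. Other marked members had abundant RNA at 0 h. These were Rgs2 (513 CPM of RNA), Vcan (335 CPM), Ptges (330 CPM), Cebpa (156 CPM), Cebpb (123 CPM), Lhcgr (70.6 CPM) and Adamts1 (49.5 CPM), with 19.9 CPM of H3K4me3 in Lhcgr, the receptor for luteinizing hormone, to 258 CPM in Rgs2, a regulator of G-protein signalling. The 4 unmarked members were Runx1, Sult1e1, Edn2 and Il6. Runx1 differed from the rest in being well expressed (52.4, 53.1 and 54.3 CPM of RNA) with 3.58 and 2.71 CPM of H3K4me3, and RefSeq gives it 2 starts 128745 bp apart. Its relative Runx2 had 1.66 ± 0.256 CPM of RNA and 47.8 and 45.1 CPM of the mark, the opposite of Runx1, although Runx2 overlaps Supt3.

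Immediate early genes, which cells induce within minutes of a stimulus, were all expressed and all marked (20 of 20), beside 53.9% and 59.2% of all IDs. Their median RNA was 17.7 CPM and their median H3K4me3 78.6 CPM, with a median percentile of 80.0 within their RNA bins. Nr4a3, an orphan nuclear receptor, had 1.29, 1.43 and 1.45 CPM of RNA and 119 and 114 CPM of H3K4me3, above the median of 98.9 CPM of the bin with the most RNA. Fosb had 1.61 ± 0.164 CPM of RNA and 72.4 and 67.6 CPM of the mark. Myc was high in both, at 86.4 ± 23.3 and 254 CPM (246 and 263). Nr4a1 varied between RNA libraries, at 124, 42.4 and 175 CPM, while its H3K4me3 was 79.7 and 87.4 CPM.

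**Figure D3:**
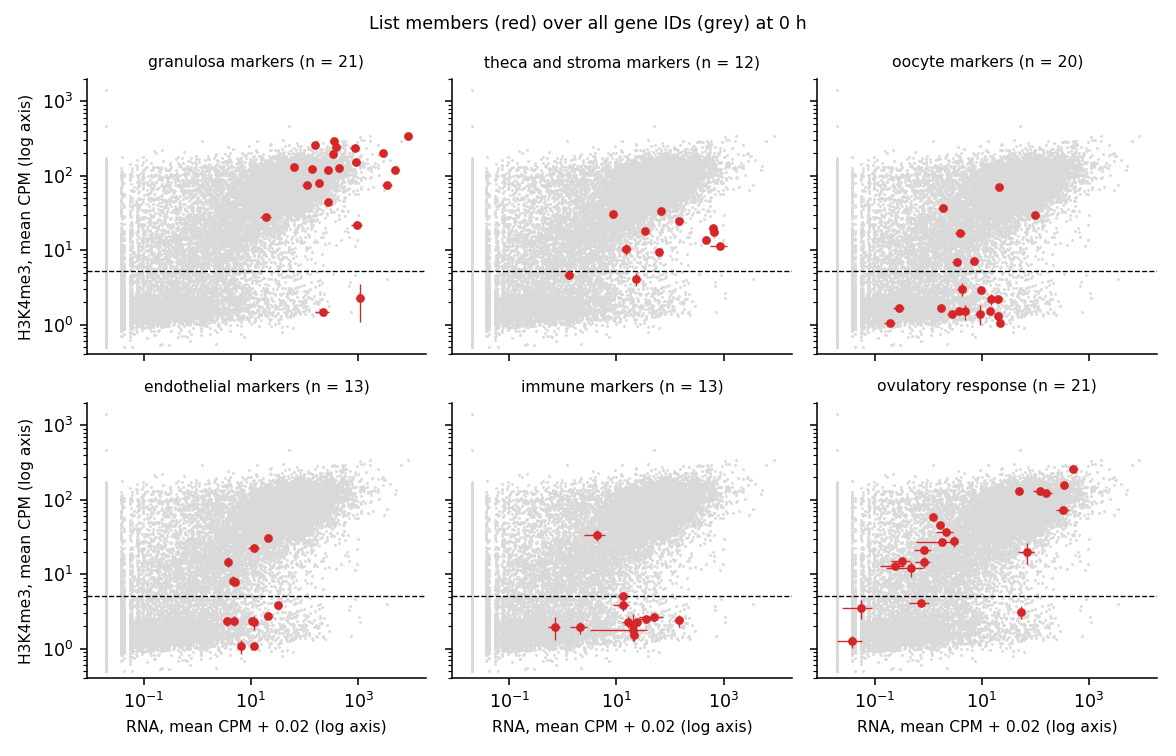
RNA (mean CPM + 0.02) against H3K4me3 (mean CPM), both on log axes, for 6 gene lists in red over all gene IDs in grey (H3K4me3 under 0.5 CPM drawn at 0.5). Bars are the SD over 3 RNA and 2 H3K4me3 libraries, and the dashed line is the limit of 5.19 CPM. Of the granulosa markers 19 lie above the limit and Cyp19a1 and Nr5a2 below it, of 13 immune markers 1, Cd14, was marked, and 17 of 21 ovulatory genes lie above the limit, over a wide range of RNA.

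The machinery of the mark itself was fully expressed. All 21 genes of H3K4 methylation and demethylation were expressed and 19 were marked (90.5%), beside 53.9% and 59.2% of all IDs. Medians over the list were 105 CPM of RNA and 102 CPM of H3K4me3. Kmt2d, an MLL-family methyltransferase, had 301 ± 38.5 CPM of RNA and 172 and 182 CPM of H3K4me3, and Setd1b had 83.7 ± 5.36 and 204 and 210 CPM. The 2 unmarked genes were Ash2l (87.0 ± 4.54 CPM of RNA; 1.82 and 1.86 CPM of H3K4me3) and Dpy30 (37.1 ± 5.78 CPM of RNA; 1.95 and 1.69 CPM). Both encode core subunits shared by the SET1 and MLL complexes. In RefSeq Dpy30 has 4 starts, of which the most upstream has 1 CpG pair in the 250 bases before it and the others have 21, 28 and 34.

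Housekeeping genes served as a check and were expressed and marked in 12 of 12 cases, beside 49.1% of all IDs. Their H3K4me3 ran from 35.3 CPM in Hprt to 182 CPM in Tbp. Of 82 ribosomal protein genes, 75 were expressed (91.5%) and 78 marked (95.1%), beside 53.9% and 59.2% of all IDs. Their medians were 396 CPM of RNA and 109 CPM of H3K4me3. Tbp, the TATA-binding protein, had 26.2 ± 1.44 CPM of RNA, and Actb, beta-actin, had 1626.9 ± 68.1 CPM with 133 CPM of H3K4me3. Tbp thus had more of the mark than Actb at far less RNA, and the relation within these lists was not computed.

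The 1063 expressed and unmarked genes included some of the most abundant RNAs of these cells. The following were chosen after their values were seen. Tenm4 (gene ID 23966; chromosome 7, 96171244 to 96911093), a teneurin of the cell surface, had 3606.3, 3316.6 and 3552.9 CPM of RNA, the seventh highest of all IDs, and 3.71 and 4.40 CPM of H3K4me3. Fat1, a large cadherin, had 1047.5 ± 53.8 CPM of RNA and 2.87 and 2.46 CPM of the mark. Sptbn1, a spectrin, had 734 ± 45.7 CPM of RNA and 1.5 and 1.44 CPM. The maintenance DNA methyltransferase Dnmt1 had 186 ± 3.49 CPM of RNA and 1.63 and 1.61 CPM, and Gpx4, which reduces lipid peroxides, had 178 ± 13.8 CPM and 1.89 and 1.86 CPM. All of these lay below the limit in both H3K4me3 libraries. Sptbn1, Dnmt1 and Gpx4 were near the receptor median of 1.74 CPM, and Tenm4 was above it in both.

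Under the naming rule, which required H3K4me3 counts shared with no other ID, the expressed and unmarked genes of highest RNA were Mbnl1, Sema3b, Ncoa6, Tacc2, Sparcl1, Bgn, C1s1, Folr1, Dnajb13 and Msln. Their mean RNA ran from 132 ± 5.47 CPM (Mbnl1, a splicing regulator) down to 37.6 ± 11.3 CPM (Msln, mesothelin of the ovarian surface). Their mean H3K4me3 ran from 3.28 CPM in Ncoa6 to 4.80 CPM in Sema3b. Low counts often coincide between IDs, and the rule thereby removed most genes at background.

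Expressed and unmarked genes had several annotated starts more often. Over all such genes with a RefSeq start, 30.9% of 787 had several, beside 19.4% of 9628 expressed and marked genes, and 24.9% and 8.01% had starts over 2000 bp apart. The gap was wider at high RNA. Among genes with at least 50 CPM of RNA and a RefSeq start, 52 of 100 unmarked genes (52.0%) had several starts, beside 21.1% of 4018 marked genes. Starts over 2000 bp apart were found in 48.0% and 8.79%. The unequal starts of Mbnl1 are shown as the example with the most RNA under the naming rule. Its upstream start (chr3:60472580-60472829, plus strand) has 1 CpG pair and the start 28349 bp downstream (chr3:60500929-60501178, plus strand) has 33.
Mbnl1 start 1: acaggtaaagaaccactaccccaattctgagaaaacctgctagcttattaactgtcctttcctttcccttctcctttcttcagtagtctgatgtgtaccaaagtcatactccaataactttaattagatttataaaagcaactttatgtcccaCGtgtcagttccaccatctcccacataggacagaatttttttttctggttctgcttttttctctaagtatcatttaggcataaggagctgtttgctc
Mbnl1 start 2: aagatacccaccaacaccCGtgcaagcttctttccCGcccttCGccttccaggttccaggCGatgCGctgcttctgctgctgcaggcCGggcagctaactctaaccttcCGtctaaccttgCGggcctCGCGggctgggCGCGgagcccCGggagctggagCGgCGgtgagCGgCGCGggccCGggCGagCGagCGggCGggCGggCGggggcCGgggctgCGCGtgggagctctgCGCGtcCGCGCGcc

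Only the downstream Mbnl1 start is CpG-rich, and the level given for the gene was 3.26 and 4.32 CPM of H3K4me3. Whether the stretch counted covers the downstream start is not known. Tenm4 has 4 and 8 CpG pairs at its starts, Sptbn1 2 and 20, and Dab2, an endocytic adaptor with 291 ± 17.3 CPM of RNA and 1.76 CPM of H3K4me3, 2 and 17. The order of rich and poor starts was then compared over all expressed genes with starts over 2000 bp apart, calling a start rich when the ratio of observed to expected CpG in its 300-base window exceeded 0.6. Where the most upstream start was rich and the most downstream poor, 94.1% of 438 genes were marked, with a median of 59.5 CPM. Where the upstream start was poor and the downstream rich, 51.2% of 162 genes were marked, with a median of 6.99 CPM, although median RNA was alike (43.3 and 47.0 CPM). With both rich, 91.2% of 137 were marked, and with both poor, 60.9% of 248. The H3K4me3 level of a gene thus went with the CpG content of its most upstream listed start. The part of the counted stretch in this was not tested. Listed starts can lie inside a gene. Sptbn1, on the minus strand, reaches to 30268384 of chromosome 11, but its most upstream listed window is chr11:30219773-30220022. The shares of genes with several starts and with rich and poor starts therefore rest on listed starts only.

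CpG content separated the classes more widely. Over 15462 IDs with 1 RefSeq start, the observed over expected CpG ratio of the 300 bases around it (250 before and 50 after) had a median of 0.556. The median was 0.794 in expressed and marked genes, 0.561 in silent and marked genes, 0.233 in expressed and unmarked genes and 0.156 in silent and unmarked genes. Among expressed genes, 43.0% of those with a ratio up to 0.2 were marked, and the share was 68.3%, 93.8%, 98.2% and 99.3% in the steps above it. Among silent genes the shares were 1.97%, 6.37%, 20.1%, 39.7% and 65.6%. At each CpG step expressed genes were thus marked more often than silent ones, and within each RNA class the share climbed with CpG.

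**Figure D4:**
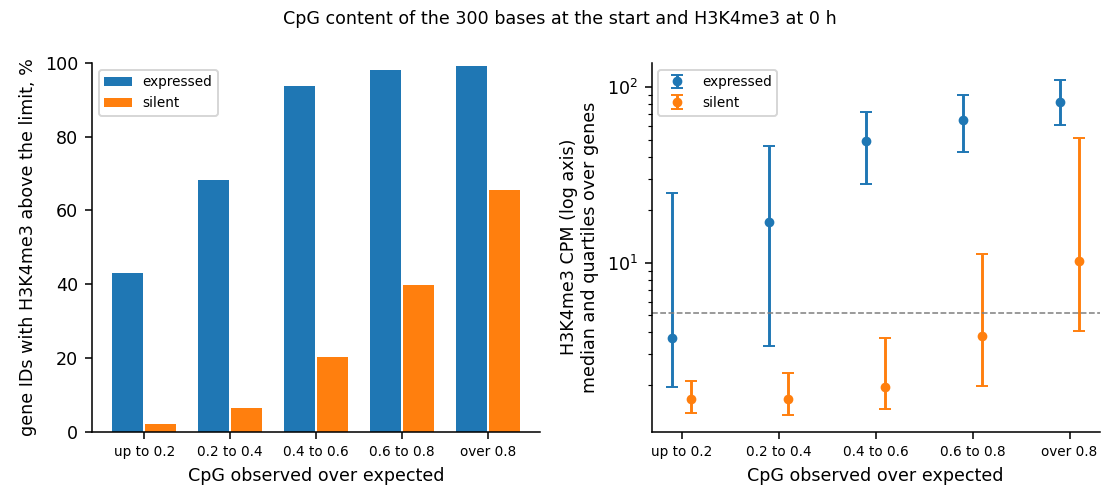
Share of marked genes (left, bars) and H3K4me3 CPM on a log axis (right, median and quartiles over genes) by observed over expected CpG of the 300-base window, for expressed and silent genes with 1 start. Shares run from 43.0% to 99.3% in expressed genes and from 1.97% to 65.6% in silent genes; the dashed line is the limit of 5.19 CPM.

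Short motifs were searched in the same windows, TATAAA on the strand of the gene and CAAGGTCA on both strands. TATAAA was found in 3.88% of expressed and marked genes, 9.74% of expressed and unmarked genes, 7.07% of silent and marked genes and 20.1% of silent and unmarked genes. Over all 15462 IDs with 1 start the share was 9.4%. CAAGGTCA, a site of the kind that Nr5a1 and Nr5a2 bind, was rare in every class, at 0.773%, 0.368%, 2.09% and 1.09% in the same order and 0.905% of all IDs with 1 start. These motifs do not overlap each other in sequence. A match describes the letters of the window and is not a bound site.

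The 785 silent and marked genes were a mixed class, of which 45.9% were protein coding, beside 96.9% of expressed and marked genes. MicroRNA genes made up 192 of the 785 and long noncoding RNAs 171. Whether these RNA libraries hold RNA as short as that of microRNA genes was not tested. Of silent and marked genes with a RefSeq start, 9.07% lay within 1000 bp of the start of an expressed and marked gene. The share was 0.148% of silent and unmarked genes, 16.1% of expressed and marked genes and 10% of all IDs. By the naming rule those of highest H3K4me3 were Srp54b, Srp54c, H2ac18, H2ac19, Eno1, Eif3j2, Actrt3, Rpl34-ps1, Rpl26 and Asb15, at means of 126 down to 105 CPM. Asb15 lies 454 bp and Actrt3 2217 bp from such a start. Several others are genes with near-identical copies.

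Eno1, the glycolytic enolase, was listed at 0 in all 3 RNA libraries with 114 and 122 CPM of H3K4me3, and its copy Eno1b had 1.02 ± 0.298 CPM of RNA and 114 and 122 CPM of H3K4me3. Rpl26, a ribosomal protein, was likewise listed at 0 with 100 and 111 CPM, and Rpl30 had 0.287 CPM of RNA and 147 CPM of H3K4me3. These are genes that every cell uses, so an RNA value of 0 can be a failure to assign reads between copies, which was not tested. Srp54b and Srp54c, copies of a signal recognition particle subunit, had at most 0.0679 CPM of RNA in a library beside 5.70 ± 0.866 CPM in Srp54a, and all 3 had 122 CPM or more of the mark in each library.

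Replication-dependent histone genes, whose messages lack a poly(A) tail, mostly had little RNA and a clear mark. Of 63, 61 were marked, 4 were expressed, 47 lay between silent and expressed, and 10 were silent and marked, with a median RNA of 0.138 CPM and a median H3K4me3 of 63.2 CPM. The 4 expressed were H2bc21 (9.54 CPM of RNA and 131 CPM of H3K4me3), H1f2 (7.47 and 84.6 CPM), H2bc4 (7.34 and 64.1 CPM) and H4c9 (3.14 and 48.9 CPM). The selection of RNA for these libraries was not tested as a source of the low RNA.

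Developmental regulators held an intermediate median level of the mark. Of 39 Hox genes, which pattern the body axis, 17 were expressed (43.6%) and 23 were marked (59.0%), shares below and near those of all IDs (53.9% and 59.2%). Their median H3K4me3 was 6.88 CPM, just above the limit and below the 18.6 CPM of all IDs. Hoxd8 (30.1, 35.3 and 26.8 CPM of RNA; 37.1 and 42.4 CPM of H3K4me3), Hoxd9 and Hoxc6 were expressed and marked. Hoxd4 had more RNA, 34.1, 48.9 and 40.4 CPM, but 2.41 and 1.35 CPM of H3K4me3, and it overlaps Hoxd3, which had 57.4 and 58.3 CPM. The genes at the posterior end of the clusters, Hoxd13, Hoxc13 and Hoxb13, had 0 RNA counts and 2.81 to 3.92 CPM of H3K4me3, each below the limit, while Hoxa13, also without RNA counts, had 5.99 and 5.84 CPM, just above it. Neighbouring Hox genes overlap or lie close together, so reads cannot always be told apart.

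Of 93 other developmental regulators of the Sox, Tbx, Pax, Irx, Lhx and similar families, 16 were expressed and 55 marked, beside 53.9% and 59.2% of all IDs, and the median H3K4me3 was 7.34 CPM. Sox4 was high in both, with 457 CPM of RNA and 205 and 232 CPM of H3K4me3, as was Sox12 with 166 CPM of RNA and 155 and 164 CPM. Irx3 (57.0 CPM of RNA; 110 and 119 CPM of H3K4me3) and Irx5 (6.76 CPM of RNA; 128 and 136 CPM), Iroquois factors of the early ovary, were both strongly marked. Pou3f2, Pou3f3 and Neurog2, neural factors, had 0 RNA counts with 17.3, 14.4 and 13.8 CPM of H3K4me3, several times background. Neurog3 and Tbx10 had 0 counts with 2.02 and 1.06 CPM. The marks of Pou3f2, Pou3f3 and Neurog2 lay between background and the median of expressed and marked genes (69.1 CPM), while Neurog3 and Tbx10 lay at background. Of the 44 silent genes of this list, 16 were marked and 21 unmarked. With a limit of 10 CPM in place of 5.19 the marked members were 12 Hox genes and 32 other regulators.

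Of 10 genes of the testis pathway, 6 were expressed and 6 marked, shares near those of all IDs (53.9% and 59.2%). Sox9, the factor that directs Sertoli cell fate, had 1.02, 3.70 and 1.73 CPM of RNA but 35.8 and 36.8 CPM of H3K4me3, and Fgf9, a growth factor of the same pathway, had 1.12 ± 0.549 CPM of RNA and 74.7 and 74.8 CPM. Dmrt1, which maintains the testis fate, had at most 0.0557 CPM of RNA and 4.17 and 4.32 CPM of H3K4me3. Dhh, desert hedgehog, which granulosa cells also make, had 134, 109 and 129 CPM of RNA and 48.2 and 51.0 CPM of the mark. The H3K4me3 of Sox9 and Fgf9 was at the 76.0 and 92.3 percentile of their RNA bins.

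Genes of other organs gave the contrast. Of 23, 6 were expressed (26.1%) and 3 were marked (13.0%), beside 53.9% and 59.2% of all IDs. Of the 23, 11 were silent and unmarked, beside 24.5% of all IDs, and the median H3K4me3 was 1.55 CPM. Alb, albumin of the liver, had at most 0.0557 CPM of RNA in a library and 1.63 and 1.61 CPM of H3K4me3, and Ttr, Ins1, Gcg, Gh and Prl were at 0 RNA counts and 1.06 to 1.61 CPM. The marked genes included Apoa2, which overlaps Tomm40l, and Mbp, myelin basic protein, with 8.55, 9.45 and 9.86 CPM of RNA and 39.4 and 35.9 CPM of H3K4me3.

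RNA of other ovarian cell types was present, and in most of their lists it came with little H3K4me3. Of 20 oocyte markers 18 were expressed (90.0%) and 6 marked (30.0%), beside 53.9% and 59.2% of all IDs. Their median H3K4me3 was 1.95 CPM. Zp2, a zona pellucida protein, had 21.4, 20.3 and 19.0 CPM of RNA and 1.37 and 1.27 CPM of H3K4me3, and Padi6, an oocyte enzyme, had 21.9 ± 2.32 CPM and 1.11 and 1.02 CPM. Gdf9, the growth factor by which oocytes act on granulosa cells, had 21.2 ± 0.367 CPM of RNA and 67.2 and 72.1 CPM of H3K4me3, but it overlaps Uqcrq. Kit, found on oocytes and theca cells, was marked at 30.2 and 29.0 CPM. In bulk samples a smaller number of cells of a type and less RNA per cell cannot be told apart.

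Of 13 immune markers 12 were expressed (92.3%) and 1 was marked (7.69%), beside 53.9% and 59.2% of all IDs. Of 13 endothelial markers 13 were expressed and 5 marked (38.5%). Lyz2, lysozyme of macrophages, had 128, 182 and 137 CPM of RNA and 2.74 and 2.12 CPM of H3K4me3. Cdh5, the endothelial cadherin, had 33.2, 29.7 and 32.0 CPM of RNA and 4.10 and 3.56 CPM of the mark. The single marked immune gene was Cd14, at 37.9 and 30.0 CPM. Without H3K4me3 replicate 1 the marked immune genes were 2. The summed RNA of the immune list was 281, 481 and 349 CPM in replicates 1 to 3, and that of the endothelial list 143, 146 and 152 CPM. Immune RNA thus differed between libraries and endothelial RNA hardly did.

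Theca and stroma markers stood apart from these in carrying a low but present mark. All 12 were expressed and 10 were marked (83.3%), beside 53.9% and 59.2% of all IDs. The 12 spanned 4.12 to 33.8 CPM of H3K4me3, with a median percentile of 4.45 within their RNA bins. Cyp17a1, the theca enzyme that makes androgens, had 1188.3, 613 and 767 CPM of RNA and 11.3 CPM of H3K4me3 in each library. Col3a1 and Col1a1, fibrillar collagens, had 658 ± 102 and 477 ± 84.7 CPM of RNA with 17.6 and 13.9 CPM of the mark. Of the smooth muscle markers 9 of 9 were expressed and 5 marked (55.6%), a share near the 59.2% of all IDs. Acta2 had 148 ± 15.1 CPM of RNA and 13.7 and 12.6 CPM of H3K4me3. Of the surface epithelium 8 of 8 were expressed and 7 marked (87.5%), from 4.34 CPM in the unmarked Msln to 45.5 CPM in Krt8, a keratin.

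Of 8 red-cell markers 2 were expressed and 1 marked, beside 53.9% and 59.2% of all IDs. The 4 globin genes were at 0 RNA counts and 1.31 to 1.67 CPM of H3K4me3. Whether such a 0 is a failure to assign reads between copies, as for Eno1, was not tested. The red-cell gene with the most RNA, Alas2 at 91.3, 69.8 and 131 CPM, overlaps Apex2. In the 10 expressed and unmarked genes of highest RNA named above, Msln belongs to the surface epithelium list. How far the expressed and unmarked class holds genes of minor cell types was not tested beyond these lists, which contribute 12 oocyte, 10 immune, 8 endothelial, 4 smooth muscle, 2 theca and stroma and 1 surface epithelium member to it.

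RNA libraries agreed closely for most genes. Among expressed genes the coefficient of variation over 3 libraries had a median of 8.59% and a 90th percentile of 22.5%. The genes of largest variation at a mean of 5 CPM or more included Cfap65, Dnah6, Foxj1, Dnah9, Cfap44, Ak7, Tm4sf1, Emb and Sik1, of which the first 6 are genes of motile cilia. A list of 16 multiciliated and oviduct genes, drawn up after these values were seen, summed to 65.3, 568 and 110 CPM in replicates 1 to 3, and 16 of 16 were highest in replicate 2. Since the list was drawn up from genes seen high in that library, this count is a description only; of all expressed genes 29.1% were highest there. Ovgp1, the oviduct glycoprotein, had 44.0, 371 and 52.6 CPM of RNA and 3.26 and 3.13 CPM of H3K4me3. Of the 16, 11 were marked, beside 59.2% of all IDs, with a median of 11.1 CPM. Immune and surface epithelium lists were also highest in replicate 2, at 1.3 and 1.2 times their mean. Granulosa markers and steroid synthesis genes were lowest there, at 0.883 and 0.837 times their mean.

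Without RNA replicate 2 the correlation was 0.776 and the expressed and unmarked genes numbered 1073, close to the values with it. H3K4me3 varied less: between its 2 libraries the median difference of marked genes was 1.06-fold, and 18 of 14516 differed by over 1.5-fold.

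Expressed genes of chromosome X had less H3K4me3 than those of any autosome. The median was 38.6 CPM over 471 expressed X genes and 60 to 74.3 CPM over single autosomes, while median RNA was 29.9 CPM on X and 28.9 to 38.1 CPM on autosomes. Both H3K4me3 libraries showed it, at 38.6 and 38.8 CPM. At matched RNA the medians were 13.9 CPM on X and 14.5 CPM on autosomes near 2.81 CPM of RNA, and 64.2 and 100 CPM near 199 CPM of RNA. Median CpG ratio was also lower on X, at 0.671 beside 0.728 to 0.819 on autosomes other than chromosome 18, which had no value. The part of CpG content in the difference was not tested.

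**Figure D5:**
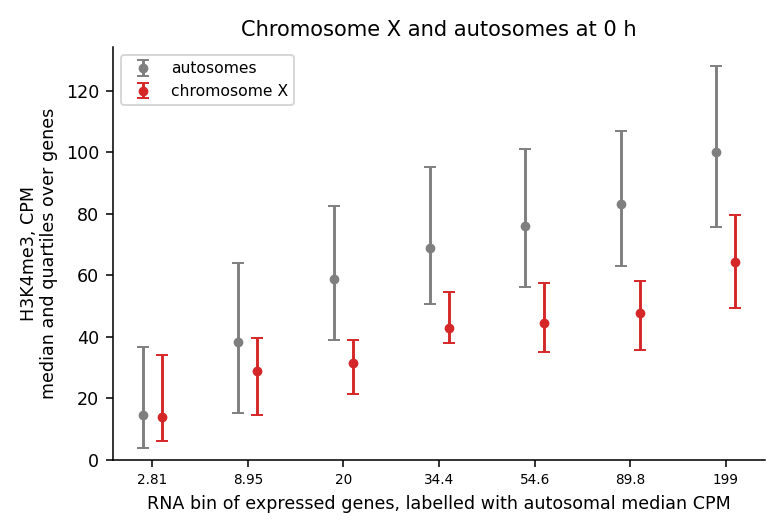
H3K4me3 CPM, as median and quartiles over genes, of expressed genes of chromosome X (red) and of the autosomes (grey) by RNA bin, labelled with the autosomal median RNA CPM. The medians nearly coincide in the lowest bin (13.9 and 14.5 CPM) and X lies below the autosomes in each of the others.

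Genes of X known to escape inactivation of 1 copy in female cells, a list chosen after values were seen, lay above the median of all expressed X genes. In the bin with the most RNA, which holds Ddx3x, Kdm5c and Xist, the X median was 64.2 CPM and the upper quartile 79.7 CPM, and Xist lay within the quartiles. The X median and upper quartile were 47.7 and 58.0 CPM in the bin of Kdm6a and 44.5 and 57.4 CPM in that of Eif2s3x. Kdm6a, a histone demethylase, had 198 and 205 CPM of H3K4me3, and Ddx3x, an RNA helicase, had 200 and 214 CPM. Kdm5c had 121 and 123 CPM, Eif2s3x 99.4 and 101 CPM, and Xist, the RNA that coats the inactive X, 81.6 and 75.9 CPM. The housekeeping genes Hprt and Pgk1, which also lie on X, had 35.3 and 47.7 CPM, below the housekeeping median of 100 CPM. None of the 49 Y genes was expressed or marked.

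Among kinds of gene, 64.3% of protein-coding IDs were marked and 62.0% expressed. For long noncoding RNAs these were 36.9% and 15.5%, for microRNA genes 21.4% and 1.01%, and for small nucleolar RNA genes 64.7% and 20.2%. Many short RNA genes lie within or beside other genes: of all 14655 IDs with a mean above the limit, 4743 had a neighbour within 5000 bp whose H3K4me3 counts were within 20%. The 3 IDs with the highest H3K4me3 were not named by the rule. Mir101c had 1426.4 ± 193 CPM with no RNA count, and Hjurp, a centromere histone chaperone, had 457 and 481 CPM at 51.1 ± 5.67 CPM of RNA, the same H3K4me3 values as an ID without a symbol.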

How the data were processed

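Both tables were deposited as unnormalized read counts by Entrez ID, per the file headers and the values, which are whole numbers with unequal library totals. As named in the submitters' processing notes, FastQC 0.11.5, Picard, STAR, kallisto and sleuth were used for RNA and Trimmomatic, Bowtie2 2.2.9, MACS2 2.2 and ChIPseeker 1.18.0 for ChIP-seq, on mm10; no source used here gives the counting program, the use of strand or the H3K4me3 windows. The authors' 48 h and input libraries were not used.

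CPM was computed from the deposited counts of 0 h libraries with TMM scaling (edgeR 4.0.16, R 4.3.3); edgeR made no test, since 0 h is 1 group per assay, and correlations across genes carry no p. The biological coefficient of variation between 0 h libraries was 0.115 (RNA) and 0.0366 (H3K4me3). Symbols (24458 of 24525 joined IDs), coordinates and promoter windows came from RefSeq on GRCm38.p6, the assembly of mm10. Of the joined IDs 18244 had a window, and expressed genes of chromosome 18 had no CpG ratio. The results on starts, CpG content and motifs cover only IDs with a window. Overlapping genes and near-identical copies cannot always be told apart in either assay.

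Members, gene lists and thresholds were chosen with earlier results of these data known. Genes were named by list, and otherwise as the 10 highest protein-coding genes in RNA, in H3K4me3, in RNA among expressed and unmarked, in H3K4me3 among silent and marked, and in RNA variation, among IDs with no overlapping gene and with H3K4me3 counts shared with no other ID (9215 IDs). Some of the genes so named are not reported here. RNA per coding length had been planned, but no lengths were used here, so RNA is compared as CPM. Python 3.11.15, pandas 2.3.3, scipy 1.17.1 and matplotlib 3.10.9 were used, and classification was tested on simulated data. Normalization, limits, thresholds, gene sets and each library left out were tried as alternatives.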

Additional observations from a re-analysis of the deposited data

How the results depend on the processing

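With the H3K4me3 limit set from genes without RNA counts (18.4 CPM), expressed and unmarked genes numbered 2095 and silent and marked genes 366. With RNA called expressed at 5 CPM, expressed and unmarked genes numbered 439. Leaving out IDs that share H3K4me3 counts with another ID removed 10800 IDs, most of them at background, and left 115 expressed and unmarked genes, 268 silent and unmarked genes and a correlation of 0.604. Protein-coding IDs alone held 360 silent and marked genes. Counting only genes with 1 start, an alternative chosen after seeing the data, gave 7758 expressed and marked, 544 expressed and unmarked, 382 silent and marked and 3928 silent and unmarked genes. The rank correlation was 0.547 in expressed genes, 0.651 in genes with 10 or more RNA counts and 0.303 with H3K4me3 divided by kb of gene span. Background H3K4me3 did not scale with gene span (0.009 in genes with no RNA count), so that division brings gene length into the value. Leaving out each library in turn gave 12071 to 12196, 1073 to 1221, 824 to 902 and 6059 to 6365 genes in the 4 classes, in the order above, and correlations of 0.772 to 0.776. Of 360 counts of list members under alternatives, 18 moved by over 1.5 times; at 5 CPM, 10 oocyte and 8 endothelial markers were expressed. A comparison with RNA divided by transcript length was not run. No paired analysis was possible because the 0 h libraries of RNA and of H3K4me3 are different assays, no groups were compared and no test was made. At the depth of these libraries, background H3K4me3 rests on 29 and 19 counts per gene, so differences among unmarked genes were not resolved.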
